A study of Mus musculus with 18 samples.

Results

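Pancreatic islets of 18 mice on a high-fat diet (HFD) differed in how much mRNA of endoplasmic reticulum (ER) chaperones they held, and the 6 islet samples with the most were compared with the 6 that held the least. The samples were chosen by the mean log2 value of 3 genes, Hspa5, Pdia4 and Manf, in each of the 18 samples of the series. The 6 highest form the high-chaperone group, the 6 lowest form the low-chaperone group, and 6 samples lie between them. The mice belonged to 2 genotypes, both kept on HFD for 12 weeks until islets were taken at sacrifice. The 10 KO samples come from beta-cell knockouts of NRK1 (nicotinamide riboside kinase 1, gene Nmrk1), labelled NRK1_BKO and made with the Cre driver Ins1Cre, which acts in beta cells and leaves the gene in other islet cells. The 8 WT samples are labelled NRK1_WT. Their titles begin with Ins1Cre as the KO titles do, but the labels do not say whether these mice carried the driver. No mice on another diet were in the series, and age, sex and batch were not given. The high-chaperone group held 2 KO and 4 WT samples and the low-chaperone group 4 KO and 2 WT samples. Differences between these groups are therefore adjusted for genotype by least squares. Exceptions are values within runs of animal numbers, within 1 genotype, or given as unadjusted. Differences are in log2 units ± the standard error (SE) of the fit over 12 samples. Because the samples were ordered by values of the same table, these differences are a description and carry no p-value. In whole islets, fewer cells of a type and less RNA per cell cannot be told apart.

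The ER is where proteins destined for secretion are made. Nascent chains enter it through the Sec61 channel, lose their signal peptide, receive N-linked sugars, form disulfide bonds and fold with the help of chaperones before vesicles carry them to the Golgi. Beta cells pass very large amounts of proinsulin along this route. When unfolded protein builds up in the ER, the sensors IRE1, PERK and ATF6 start the unfolded protein response, and ATF6 and XBP1 raise transcription of ER chaperone genes. Hspa5 (BiP) is the ER member of the HSP70 family, Pdia4 (ERp72) a disulfide isomerase, and Manf a small ER protein that binds BiP and protects beta cells.

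ATF6 acts through the ER stress response element, whose consensus is CCAAT, a gap of 9 bases and CCACG. This element was searched, as these exact letters and on both strands, in the 250 bases before the start of each gene in a RefSeq promoter table of GRCm38.p6. It stood in 37 of 32851 promoters (0.113%), where a gene can have several. Of the genes measured here, 12 of 8509 with a promoter in the table carried it (0.141%). Among the listed ER lumenal chaperones with a promoter it was 5 of 15 (33.3%). Among the genes whose high and low values did not overlap (below), 1 of 42 with a promoter carried it on the higher side, Dnajc3, and 0 of 23 on the lower side. The promoters below are shown because they carry the element and their genes differed to unlike degrees, with the 2 blocks of the element in capitals, read 5′ to 3′ on the strand of the gene. Hspa5 ordered the samples (chr2:34771840-34772089, plus strand), Dnajc3 was higher in every high-chaperone sample (chr14:118937682-118937931, plus strand), Calr was higher in nearly all (chr8:84846932-84847181, minus strand), and Hsp90b1, with 2 copies in opposite orientations, differed little (chr10:86705445-86705694, minus strand). A match of letters is not a measured binding site.
Hspa5: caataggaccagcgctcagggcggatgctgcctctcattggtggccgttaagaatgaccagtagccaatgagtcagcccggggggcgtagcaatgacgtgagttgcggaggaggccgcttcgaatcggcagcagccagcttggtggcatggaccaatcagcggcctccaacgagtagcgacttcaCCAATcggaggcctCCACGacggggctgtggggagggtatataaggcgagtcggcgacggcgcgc
Dnajc3: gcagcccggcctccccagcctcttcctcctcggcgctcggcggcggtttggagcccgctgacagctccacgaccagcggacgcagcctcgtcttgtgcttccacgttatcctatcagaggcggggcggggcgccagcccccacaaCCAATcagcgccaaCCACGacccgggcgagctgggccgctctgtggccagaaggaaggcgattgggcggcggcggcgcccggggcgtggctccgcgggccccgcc
Calr: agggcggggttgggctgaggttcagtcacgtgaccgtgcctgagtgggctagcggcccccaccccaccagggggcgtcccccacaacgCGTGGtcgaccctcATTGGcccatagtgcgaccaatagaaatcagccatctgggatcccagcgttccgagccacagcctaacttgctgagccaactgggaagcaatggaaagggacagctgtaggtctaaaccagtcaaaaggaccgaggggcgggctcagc
Hsp90b1: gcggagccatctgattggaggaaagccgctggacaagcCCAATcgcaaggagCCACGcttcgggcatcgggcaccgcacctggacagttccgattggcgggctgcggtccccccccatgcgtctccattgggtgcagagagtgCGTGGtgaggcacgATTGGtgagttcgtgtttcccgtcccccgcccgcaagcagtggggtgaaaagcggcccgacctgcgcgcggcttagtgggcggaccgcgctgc

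Values are log2 CPM (reads scaled between samples) with a small constant, as deposited. The scale did not follow the listed reads alone. A read was worth 0.390 CPM in KO 3 with 3292303 listed reads, but 0.265 CPM in KO 6 with 3295299. It was worth 0.411 CPM in WT 7 and 0.377 CPM in KO 2, against 0.238 to 0.305 CPM in the high-chaperone samples. What set this scale is not stated, and its part in the differences, that of Ins2 included, was not tested. The mean of the 3 ordering genes was 8.22 in KO 6, 8.22 in KO 8, 8.21 in WT 5, 8.04 in WT 2, 8.04 in WT 3 and 8.02 in WT 4, the high-chaperone samples. It was 7.59 in KO 4, 7.43 in KO 9, 7.28 in WT 8, 7.24 in WT 7, 7.14 in KO 3 and 7.06 in KO 2, the low-chaperone samples. The order has no natural break at the upper edge, where WT 4 at 8.02 lay inside and KO 5 at 7.99 outside. At the lower edge KO 4 at 7.59 lay inside and WT 6 at 7.65 outside.

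**Figure D1:**
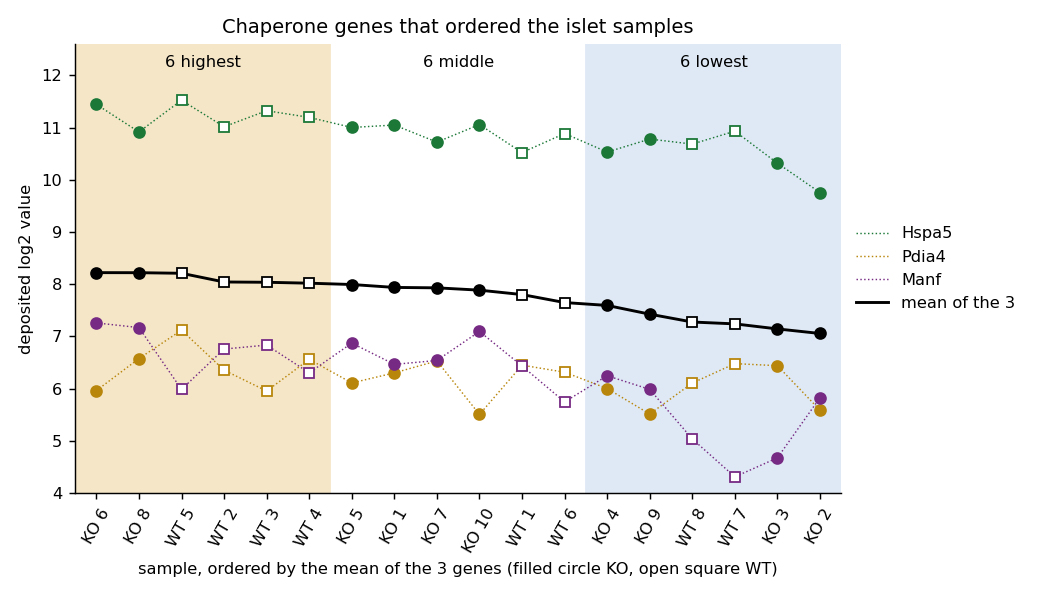
Deposited log2 values of Hspa5, Pdia4, Manf and their mean (y axis) in the 18 samples, ordered by that mean from left to right, with KO as filled circles and WT as open squares. The mean declines gradually from 8.22 to 7.06, while each single gene varies around that order, Manf most.

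The 3 genes did not move as a block. Hspa5 (chr2:34772090-34776529) spanned 10.92 to 11.52 in the high-chaperone samples and 9.76 to 10.93 in the low ones, and 5 of 6 high samples lay above all low samples. Pdia4 (chr6:47796141-47813512) spanned 5.96 to 7.12 against 5.51 to 6.48, with 3 of 6 above. Manf (chr9:106888753-106891938) spanned 5.99 to 7.26 against 4.31 to 6.25, with 5 of 6 above. The standard deviation over the 18 samples was 0.42 for Hspa5, 0.42 for Pdia4 and 0.84 for Manf, so Manf weighed most in the order. Manf also had the fewest reads, 47 to 575 per sample, against 2289 to 12355 for Hspa5 and 126 to 582 for Pdia4. By the mean of 7 other chaperone and isomerase genes (Hsp90b1, Calr, Pdia3, Dnajb11, Hyou1, Sdf2l1 and Creld2), 5 of the 6 high and 5 of the 6 low samples were the same, with KO 5 in place of WT 2 and KO 7 in place of KO 4.

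Both groups held KO and WT samples, and the order itself was not tested against genotype. In the test of KO against WT over all 18 samples (limma, two-sided, Benjamini-Hochberg adjustment over all genes), 0 of 10509 genes passed an adjusted p of 0.05 (0%), and 567 had an unadjusted p under 0.05, or 540 without the mean-variance trend. KO minus WT was -0.25 ± 0.19 (SE) for Hspa5 (limma adjusted p = 0.945), -0.36 ± 0.17 for Pdia4 (limma adjusted p = 0.925) and 0.49 ± 0.31 for Manf (limma adjusted p = 0.945). Nmrk1 itself had 3 to 36 reads per sample and a KO minus WT value of -0.03 ± 0.35 (limma adjusted p = 0.997). Which part of the gene was removed is not given and other islet cells keep it, so its 3′ end reads do not check the labels. Titles carry an animal number, and these p-values measure only the spread between the samples.

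Depth was 2831137 to 4303680 reads per sample over the listed genes, and Ins2 alone took 33.4 to 56.1% of them. The 3 samples with the most listed genes at 0 reads, WT 7 with 346, KO 2 with 320 and KO 3 with 227, all fell in the low-chaperone group, whereas the high-chaperone samples had 62 to 134. Values that moved by over 1.5 times without these 3 sparse samples are therefore given both ways for the genes and lists described, apart from differences near 0, with the 6 highest of the remaining 15 set against the 6 lowest (KO 4, KO 9, WT 8, WT 6, WT 1 and KO 10). Leaving out a single sample likewise drew the next sample of the order into its group.

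Across the 10506 genes outside the ordering trio, 47 (0.447%) were higher in all 6 high-chaperone samples than in any low-chaperone sample, and 28 (0.267%) were lower in all 6. By size, 277 genes (2.64%) were at least 2-fold higher and 172 (1.64%) at least 2-fold lower. The median difference over all genes was 0.03, and 52.9% of genes were positive. Without the 3 sparse samples the counts were 30 and 21 for no overlap, and 106 and 102 for 2-fold. All 47 higher and all 28 lower genes kept their sign there, but only 11 of the 47 and 8 of the 28 were again free of overlap.

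The 6 gene lists of the early secretory route were ER lumenal chaperones, disulfide isomerases and oxidases, ER-associated degradation, translocation and signal peptide processing, N-glycosylation, and the COPII and COPI vesicle coats with their cargo receptors. Of their 117 measured genes, 107 had a positive difference, with a median of 0.39 against 0.02 over the other 10389 genes. Higher without overlap were 13 of the 117 (11.1%, against 0.327% of the other genes). Lower without overlap were 0 of the 117 and 28 of the other 10389. Without the 3 sparse samples the median was 0.28, 104 of 117 were positive and 8 did not overlap (6.84%, against 0.286% of all genes). These lists and the ordering genes share known regulators and functions, so the contrast cannot serve as independent evidence on them.

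**Figure D2:**
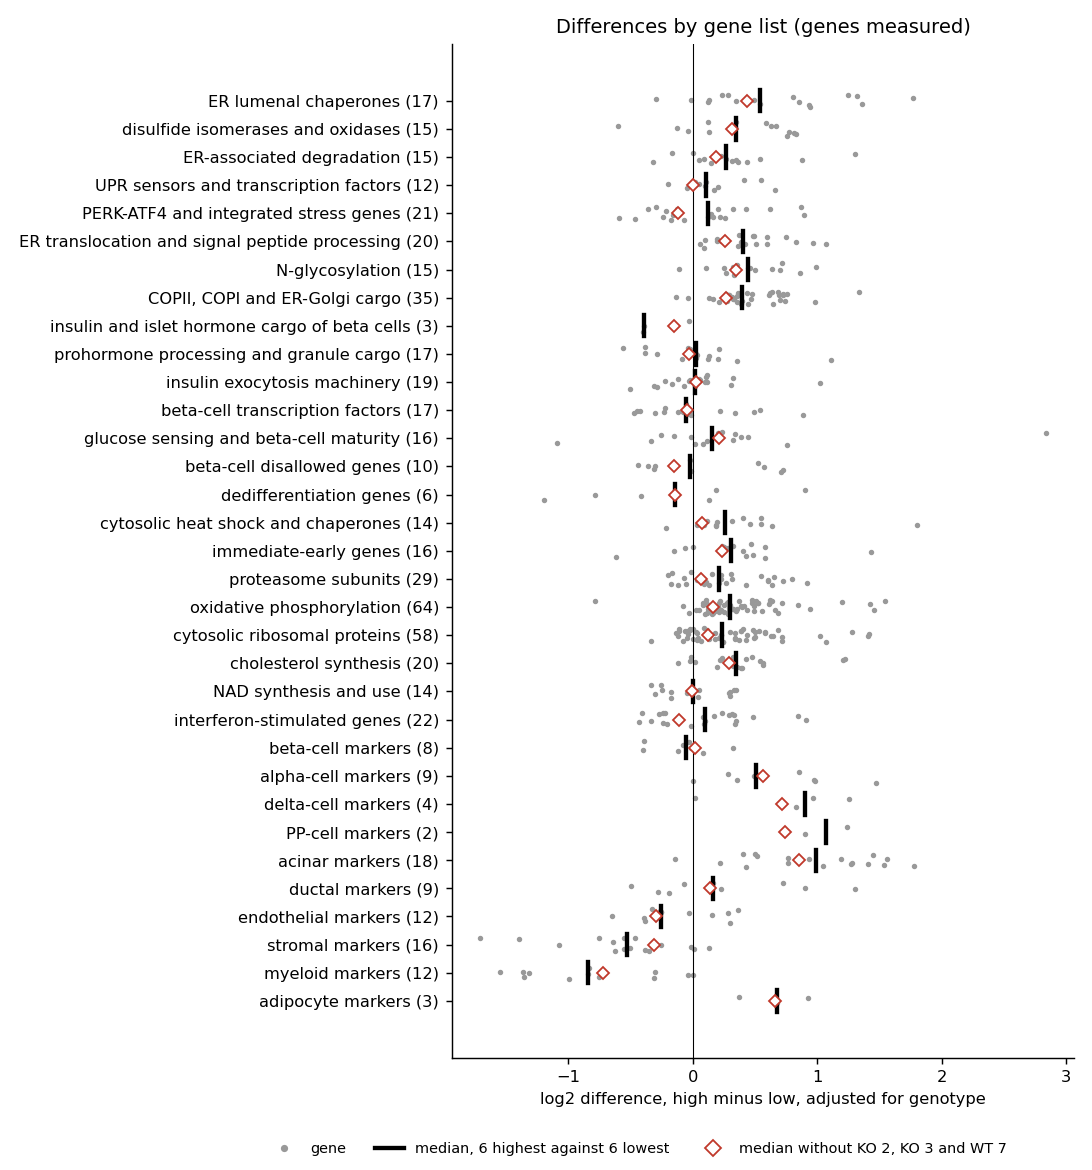
Genotype-adjusted log2 difference, high minus low (x axis), of each measured gene (grey points) in each gene list (y axis, number measured in brackets). Black bars are list medians and open red diamonds the medians without the 3 samples with the most genes at 0 reads; the 6 early secretory lists have medians of 0.27 to 0.54, and the stromal and myeloid markers -0.53 and -0.84.

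ER lumenal chaperones other than the ordering genes had the highest median of the 6 lists, 0.54 over 17 genes, of which 15 were positive, 3 did not overlap and 4 were at least 2-fold higher. Their mean log2 value per sample was 6.52 to 6.93 in the high-chaperone samples and 5.92 to 6.29 in the low ones, without overlap. Sdf2l1, a partner of ER HSP40 proteins that keeps substrates soluble, had the lowest, median and highest values of 6.92, 7.27 and 7.68 in the high-chaperone samples and of 5.45, 6.10 and 6.47 in the low ones. Its difference was 1.32 ± 0.21, and it stayed at 1.31 without the sparse samples. Dnajc3 (p58IPK), an ER HSP40 that binds unfolded chains, ran at 8.83, 8.99 and 9.12 against 8.22, 8.49 and 8.71, a smaller but tight difference of 0.49 ± 0.10.

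Ppib, the ER cyclophilin B that isomerises prolines, completed the chaperones without overlap. It had lowest, median and highest values of 5.21, 5.76 and 6.06 in the high group and 4.37, 4.81 and 5.20 in the low group, a difference of 0.94 ± 0.14 from 64 to 223 reads, or 0.62 without the sparse samples. The gap between the groups was narrow, 5.21 in WT 4 against 5.20 in KO 3. Calr (calreticulin), the lectin chaperone of the glycoprotein folding cycle, differed by 0.80 ± 0.17. Only WT 7, at 9.32, reached into the high range of 9.31 to 9.75, and the other low samples lay between 8.47 and 8.81. Hyou1 (GRP170), the nucleotide exchange factor of BiP, differed by 1.36 ± 0.30 from 14 to 113 reads, and 5 of 6 high samples lay above all low ones. It was 0.81 without the sparse samples.

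The BiP cochaperones Dnajb9 (ERdj4) and Dnajb11 (ERdj3) differed by 0.86 ± 0.24 and 0.93 ± 0.34, or by 0.51 and 0.52 without the sparse samples, and the prolyl isomerase Fkbp11 by 1.25 ± 0.28. Fkbp2 had the largest value of the list, 1.77 ± 0.71, but it rested on 2 to 160 reads and was 0.99 without WT 7 and 0.57 without all sparse samples. Not all chaperones shared the pattern. Hsp90b1 (GRP94), with 1940 to 4516 reads, differed by 0.24 ± 0.28 and by 0.03 without KO 8 or 0.37 without the sparse samples; its groups overlapped widely, at 9.23 to 10.37 against 8.94 to 10.07. Canx (calnexin) differed by 0.13 ± 0.13 and Sil1, another exchange factor of BiP, by -0.30 ± 0.18, or -0.03 without the sparse samples. Creld2 differed by 0.54 ± 0.45, or 0.25 without KO 3 and 0.07 without all sparse samples.

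Among disulfide isomerases and oxidases, 12 of 15 were positive with a median of 0.35, and 3 did not overlap. The list mean per sample overlapped between the groups, at 5.38 to 5.79 in the high-chaperone samples against 4.91 to 5.54 in the low ones. By that mean, 4 of 6 high samples lay above all low ones. Pdia3 (ERp57), which works with calreticulin on glycoproteins, ran at 9.25, 9.32 and 9.49 in the high-chaperone samples (lowest, median, highest) and at 8.43, 8.69 and 9.09 in the low ones. The difference was 0.67 ± 0.11, and 0.45 without the sparse samples. P4hb (PDI itself) ran at 8.14, 8.43 and 8.77 against 7.04, 7.70 and 8.14, a difference of 0.75 ± 0.20 with almost no gap, since KO 8 and KO 4 both stood at 8.14. Without the sparse samples it was 0.36. Selenos, a selenoprotein of the ER membrane that recruits degradation factors, was counted in this list and not with ER-associated degradation. It differed by 0.59 ± 0.16, at 7.57 to 8.18 against 6.47 to 7.45, and by 0.22 without the sparse samples.

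The oxidase Ero1a, which reoxidises PDI, differed by 0.78 ± 0.40 and was 0.45 without KO 2 and 0.40 without all sparse samples. Erp44, which retains oxidases in the early secretory route, differed by 0.83 ± 0.21, or 0.36 without them. Ero1b, the beta-cell enriched oxidase, differed by 0.34 ± 0.20, and the ER peroxiredoxin Prdx4 by -0.60 ± 0.54, or -0.33 without the sparse samples.

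For ER-associated degradation, which returns misfolded proteins to the cytosol, 13 of 15 genes were positive with a median of 0.27, and 0 were free of overlap. The list mean per sample nonetheless separated the groups, at 5.81 to 6.06 against 5.47 to 5.72. Edem2, which trims mannose from misfolded glycoproteins, differed by 0.88 ± 0.37, and the ligase Syvn1 (HRD1) by 1.31 ± 0.65. They were 0.28 and 0.46 without the sparse samples, and Syvn1 was 0.79 without WT 7 alone. The partner of Syvn1, Sel1l, differed by -0.17 ± 0.10, and Herpud1 by 0.27 ± 0.14, or 0.12 without the sparse samples.

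The sensors and transcription factors of the unfolded protein response varied less: 10 of 12 were positive, with a median of 0.10 that became -0.04 without KO 8 and 0.00 without the sparse samples. Atf6 differed by 0.41 ± 0.13 and Atf6b by 0.55 ± 0.30 (0.27 without the sparse samples), whereas Ern1 (IRE1 alpha) differed by -0.20 ± 0.16 (-0.35 without them). Total Xbp1 differed by 0.66 ± 0.43, a value that rested on the low readings of 3.94 in WT 7 and 3.98 in KO 3; the other low samples lay at 5.21 to 6.10 and the high ones at 5.22 to 5.98. Without the sparse samples it was 0.19. Reads at the 3′ end do not tell spliced from unspliced Xbp1.

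For the PERK and ATF4 arm of the stress response the values depended on the samples compared. Of 21 such genes 11 were positive and 10 negative, with a median of 0.12, or 0.01 without KO 4 and -0.12 without the sparse samples. Within the 2 runs of animal numbers described below the median was 0.41. Atf4 differed by 0.05 ± 0.34, Ddit3 (CHOP) by 0.02 ± 0.37 and Trib3 by -0.29 ± 0.65, whereas within the runs they differed by 0.61, 0.76 and 0.97. The amino acid transporter Slc7a5 differed by 0.87 ± 0.29, but by 0.40 without WT 7 and 0.22 without all sparse samples, and the serine pathway enzymes Psat1 and Shmt2 by -0.46 ± 0.39 (-0.76 without KO 8) and -0.59 ± 0.37 (-0.93 without the sparse samples). The list means of the 2 groups overlapped fully, 5.47 to 6.14 against 5.05 to 6.31.

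All 20 translocation genes were positive (20 of 20), with a median of 0.41, or 0.26 with 19 positive without the sparse samples. Free of overlap were 3 of them, the translocon-associated subunits Ssr1 and Ssr2 and the signal peptidase subunit Spcs2. Ssr1 (chr13:37971401-37994208) ran at 7.89, 8.15 and 8.39 in the high-chaperone samples (lowest, median, highest) and at 7.41, 7.56 and 7.78 in the low ones, a difference of 0.60 ± 0.10. Ssr2 differed by 0.75 ± 0.23, at 6.46 to 6.90 against 5.11 to 6.30, and Spcs2 by 0.83 ± 0.21, at 8.15 to 8.50 against 7.10 to 8.10. The low end of Spcs2 was set by sparse samples, 7.10 in KO 3 and 7.13 in WT 7, and without them the difference was 0.31. The signal recognition particle subunit Srp9 had the largest value of the list, 1.07 ± 0.29, but it was 0.55 without the sparse samples and -0.06 within the 2 runs.

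N-glycosylation showed a median of 0.45, with 14 of 15 genes positive. Rpn1, a subunit of the oligosaccharyltransferase that attaches the sugar tree, was free of overlap. It ran at 8.63, 8.67 and 8.92 against 7.46, 7.98 and 8.48, a difference of 0.70 ± 0.17, or 0.51 without the sparse samples. Other subunits of the same complex were also higher on average, Ostc by 0.99 ± 0.35 and the catalytic Stt3a by 0.86 ± 0.18, though without the sparse samples they were 0.37 and 0.31, and Stt3a was 0.53 without WT 7 alone. The glucosidase Mogs, which makes the first trimming step of the attached sugar, differed by 0.72 ± 0.21, or 0.35 without the sparse samples.

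Of the COPII, COPI and cargo genes, 33 of 35 were positive, with a median of 0.39. Of these, 3 did not overlap. Sec23b, a subunit of the inner COPII coat, ran at 5.34 to 5.96 against 4.18 to 5.29, a difference of 0.76 ± 0.20. Tmed9, a p24 cargo receptor, ran at 7.37 to 7.81 against 6.20 to 7.17, a difference of 0.72 ± 0.18. Without the sparse samples these differences were 0.46 and 0.46. Uso1 (p115), which tethers ER vesicles at the Golgi, ran at 6.93 to 7.56 against 6.63 to 6.84, a difference of 0.47 ± 0.11. Kdelr2, which returns escaped chaperones to the ER, differed by 0.73 ± 0.25. Sec13, at 1.33 ± 0.51, was 0.86 without WT 7 and 0.17 without all sparse samples. The list means did not overlap between the groups, 6.12 to 6.31 against 5.53 to 6.06.

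**Figure D3:**
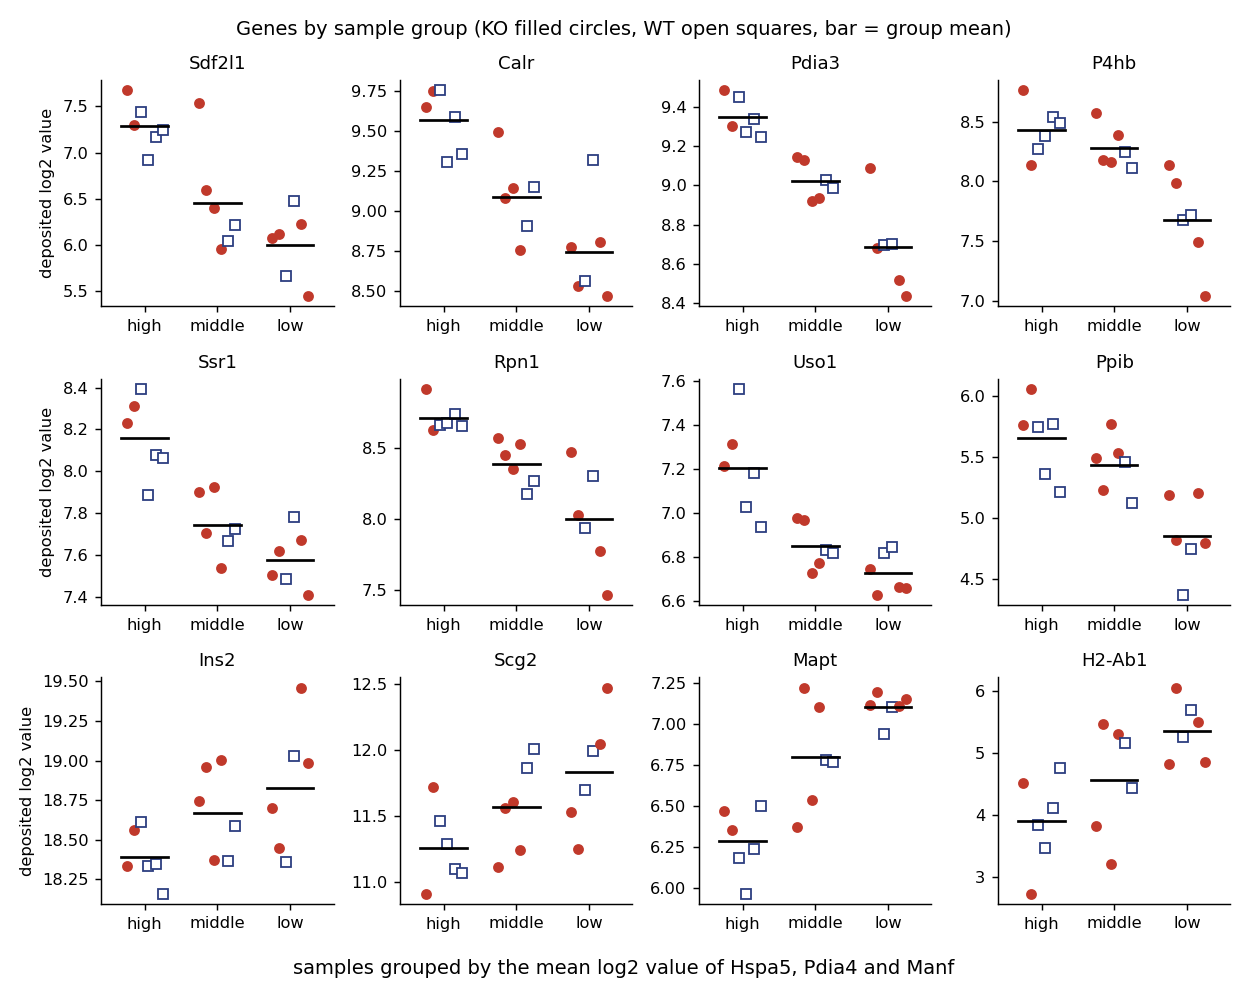
Deposited log2 values (y axes, 1 panel per gene) in the high-chaperone, middle and low-chaperone samples (x axis), with KO as filled circles, WT as open squares and bars at the group means. Sdf2l1, Pdia3, P4hb, Ssr1, Rpn1, Uso1 and Ppib are higher in all 6 high samples than in any low sample, Mapt and H2-Ab1 are lower in all 6, and Calr, Ins2 and Scg2 overlap.

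Within each genotype the early secretory lists pointed the same way. Among KO samples (2 high, 4 low) the medians were 0.84 for chaperones, 0.39 for isomerases, 0.35 for degradation, 0.48 for translocation, 0.41 for N-glycosylation and 0.47 for the vesicle coats. Among WT samples (4 high, 2 low) they were 0.50, 0.33, 0.16, 0.35, 0.41 and 0.39 in the same order. Animal numbers in the titles fall into runs of consecutive numbers, and within the 2 runs that held both high and low samples the medians were 0.50, 0.42, 0.39, 0.28, 0.51 and 0.36. In those runs the low samples were KO 2, KO 3 and KO 4 and the high ones WT 2, WT 3 and WT 4. Order and genotype therefore cannot be told apart there. These fits had a term for the run and none for genotype, and KO 2 and KO 3 are sparse samples. What the runs stand for is not given.

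Insulin mRNA was not higher where the chaperones were. Ins2 had lowest, median and highest values of 18.16, 18.34 and 18.61 in the high-chaperone samples and of 18.36, 18.84 and 19.46 in the low ones, and 4 of 6 high samples lay below all low samples. The difference was -0.39 ± 0.20. Ins2 took 33.4 to 42.0% of reads in the high group and 37.2 to 56.1% in the low group, where KO 3 held the highest share. Without the sparse samples, which include KO 3, the difference was -0.15. Ins1 differed by -0.40 ± 0.24 after adjustment, at 14.35 to 16.33 against 15.34 to 16.71. The Cre driver, Ins1Cre, is named after this gene, and the labels do not give its dose in each animal. Its part in the Ins1 values was not tested, so Ins1 is a weaker guide to insulin mRNA here than Ins2. Besides KO 8 at 14.35, the middle sample KO 7 was also low, at 14.43. The Ins1 difference depended on the samples and on the fit. It was -0.06 without KO 8, which had the lowest Ins1 of the high group, and -0.23 without the sparse samples. Without the adjustment for genotype it was -0.08. Within the 2 runs, where all low samples were KO and all high ones WT, it was 0.65. Ins1 and Ins2 are near copies, and the sources here do not say how reads shared by both were counted. Iapp, the amyloid peptide secreted with insulin, differed by -0.03 ± 0.21, or 0.16 without KO 8.

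Genes of prohormone processing and of the insulin granule split evenly, 10 of 17 positive with a median of 0.03. The convertases Pcsk1 and Pcsk2 differed by 0.35 ± 0.35 (0.59 without KO 9 and 0.17 without the sparse samples) and 0.04 ± 0.10, and the zinc transporter of the granule, Slc30a8, by 0.21 ± 0.16 (0.35 without the sparse samples). Carboxypeptidase E (Cpe), which trims the convertase products, differed by -0.29 ± 0.10, and the granin Chga by -0.09 ± 0.17. Secretogranin II (Scg2), another granule protein, was lower: 10.91, 11.19 and 11.72 in the high-chaperone samples against 11.25, 11.84 and 12.48, a difference of -0.56 ± 0.24. Vgf differed by 1.11 ± 0.39, but by 0.70 without WT 7 and by 0.04 without all sparse samples. For the exocytosis machinery 10 of 19 genes were positive, with a median of 0.02.

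Beta-cell identity genes showed no common direction. Of 17 transcription factors 5 were positive, with a median of -0.06. Pdx1 differed by -0.12 ± 0.28, Nkx6-1 by -0.08 ± 0.30 and Pax6 by -0.48 ± 0.35, while Insm1 differed by 0.89 ± 0.40. Without the sparse samples the last 2 were -0.16 and 0.44. The maturity marker Ucn3 differed by -0.01 ± 0.22 and the glucose transporter Slc2a2 by 0.08 ± 0.26. Glucose sensing genes had a median of 0.16 with 11 of 16 positive. G6pc2, the islet glucose-6-phosphatase, ran at 9.14, 9.26 and 9.75 against 8.76, 8.99 and 9.23, a difference of 0.32 ± 0.12, with 4 of 6 high samples above all low ones. Sord, which makes fructose from sorbitol, was at 3.03 to 4.43 against 4.23 to 5.01, a difference of -1.10 ± 0.25 from 25 to 95 reads.

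Genes normally silenced in beta cells had a median of -0.02 (4 of 10 positive), and dedifferentiation genes -0.14 (3 of 6). In the latter list Neurog3, the endocrine progenitor factor, differed by -1.20 ± 0.52 from 8 to 130 reads. The 8 beta-cell markers had a mean per sample of 11.17 to 11.46 in the high-chaperone group and 11.17 to 11.62 in the low group.

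Outside the lists, the larger higher values free of overlap included the following. Wfs1 (wolframin), an ER membrane protein whose loss causes diabetes, ran at 4.50, 4.83 and 5.27 against 3.82, 4.09 and 4.44, a difference of 0.76 ± 0.17, or 0.32 without the sparse samples. Mydgf, a secreted and ER-resident factor, differed by 0.87 ± 0.24, or 0.45 without the sparse samples. Others of this kind were Ttyh1, a chloride channel family member, at 1.30 ± 0.25 (0.86 without WT 8 and 0.61 without the sparse samples), Trabd at 0.83 ± 0.13 (0.48 without the sparse samples), and Srm (spermidine synthase) at 0.76 ± 0.42 (0.44 without KO 2).

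On the lower side Mapt (tau, a microtubule protein) ran at 5.96, 6.30 and 6.50 in the high-chaperone samples and 6.94, 7.11 and 7.20 in the low ones, a difference of -0.77 ± 0.09, or -0.65 without the sparse samples. Mettl27, a methyltransferase-like gene, differed by -0.94 ± 0.14, the lysosomal protease Ctsf by -0.82 ± 0.16, and the GABA-B receptor subunit Gabbr1 by -0.67 ± 0.16. These 3 differences were -0.54, -0.44 and -0.36 without the sparse samples. Pdlim7, Cables2, Pgm2l1, Gprasp2 and Wdr4 had differences of -0.86 to -0.63, of which Pdlim7, Cables2 and Gprasp2 were -0.51, -0.52 and -0.36 without the sparse samples. None of the 28 lower genes was among the 117 genes of the early secretory lists. They were 0.267% of all 10506 genes, a share too small for this to set the lists apart.

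Markers of other cell types moved with the chaperone order, and their part in the results was not tested. Stromal markers were lower in 14 of 16 genes with a median of -0.53, or -0.32 without the sparse samples, and their mean per sample did not overlap, at 2.34 to 2.86 in the high-chaperone samples and 2.999 to 3.71 in the low ones. The collagen gene Col1a1 differed by -1.40 ± 0.39 and the matrix protein gene Sparc by -0.75 ± 0.24, and without the sparse samples by -0.71 and -0.30. Myeloid markers were lower in 11 of 12, with a median of -0.84 and overlapping means of 2.35 to 4.08 against 3.03 to 4.78. That median was -0.54 without KO 9 and -0.12 within the 2 runs. H2-Ab1, a class II antigen-presentation gene, had the largest lower value among the genes free of overlap and averaging at least 4, at 2.74, 3.98 and 4.76 against 4.82, 5.37 and 6.05, a difference of -1.55 ± 0.39. The macrophage receptor gene Csf1r differed by -1.36 ± 0.45, or -0.50 without the sparse samples. Endothelial markers had a median of -0.26, with 4 of 12 positive, which was -0.09 without KO 2.

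The other endocrine cells and the exocrine pancreas went the opposite way. Somatostatin (Sst), of delta cells, ran at 10.84, 11.46 and 11.62 against 9.43, 9.81 and 11.01, a difference of 1.26 ± 0.30, with 5 of 6 high samples above all low ones. Glucagon (Gcg), of alpha cells, differed by 0.98 ± 0.39 at 12.49 to 13.40 against 10.66 to 13.13, and pancreatic polypeptide (Ppy) by 1.24 ± 0.53 at 8.56 to 9.96 against 6.89 to 9.52. Ppy differed by 0.73 without the sparse samples. Over the lists, 9 of 9 alpha-cell, 4 of 4 delta-cell and 2 of 2 PP-cell markers were positive, with medians of 0.50, 0.90 and 1.07.

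Acinar markers, genes of the enzyme-secreting exocrine cells, were positive in 17 of 18 with a median of 0.99, or 1.96 without KO 8. Their means per sample overlapped, at 2.63 to 6.26 against 1.67 to 4.90. KO 8, with the second highest chaperone value, had an acinar mean of 2.63, and WT 8, a low-chaperone sample, one of 4.90. The acinar mean differed by 0.94 ± 0.82, and what acinar RNA contributes to the secretory lists was not tested. With the acinar mean as a further covariate the acinar median falls by construction, and it was 0.13. The secretory medians in that fit were 0.51 for chaperones, 0.37 for isomerases, 0.25 for degradation, 0.46 for translocation, 0.44 for N-glycosylation and 0.38 for the vesicle coats. With the number of genes at 0 reads as the covariate instead, they were 0.59, 0.35, 0.26, 0.39, 0.35 and 0.31.

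**Figure D4:**
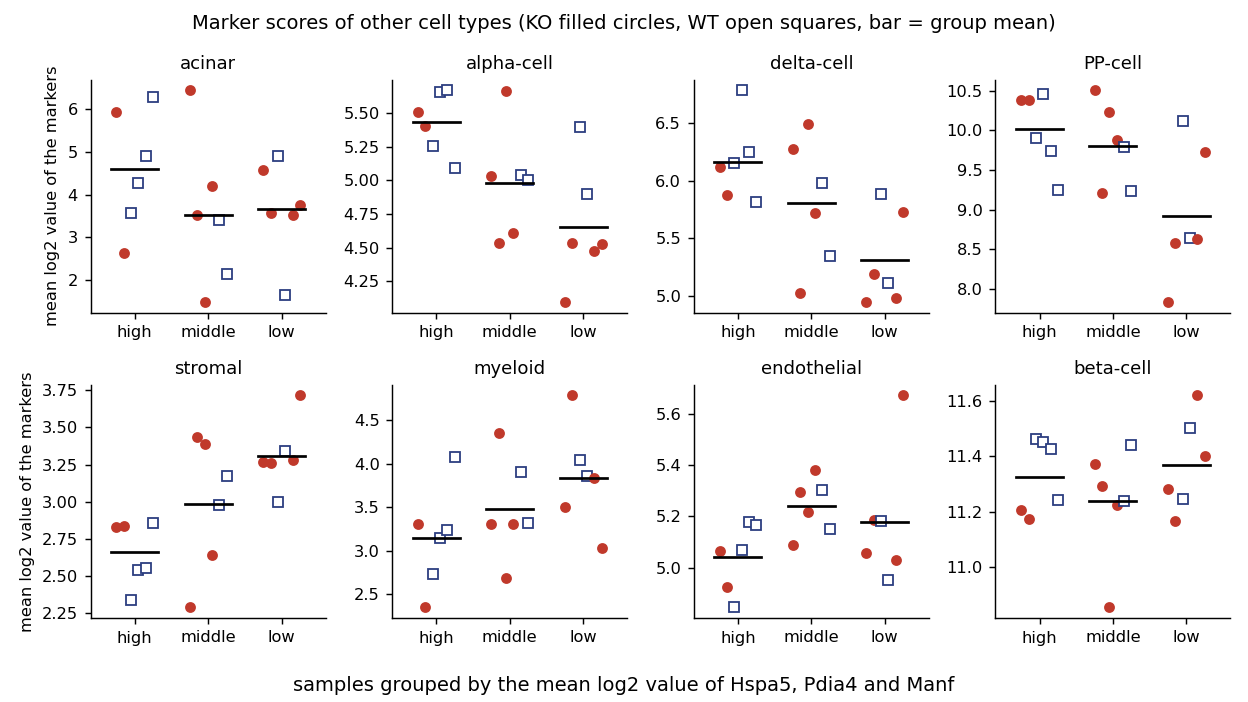
Mean log2 value of the markers of each cell type (y axes, 1 panel per type) in the high-chaperone, middle and low-chaperone samples (x axis), with KO as filled circles, WT as open squares and bars at the group means. Stromal scores of the high group (2.34 to 2.86) lie below all of the low group (2.999 to 3.71), whereas acinar and beta-cell scores overlap.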

How the data were processed

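Islet RNA of 10 KO and 8 WT mice was sequenced from the 3′ end (QuantSeq FWD, single reads, 50 ng total RNA), per the labels' protocols. The authors deposited 1 table of log2 values for 10509 genes. Per the submitters' processing notes, GRCm38, edgeR, HTSeq 0.6.1 and STAR 2.5.2 were used, with no role stated. The constant, annotation, strand setting and low-value filter are not stated in those notes. In every sample the lowest deposited log2 value was -0.83 (0.562 CPM). After subtraction of it, 100% of linear values were whole multiples of 1 read within 0.05 reads, so whole reads could be recovered. The median gene had 60 reads. PCR copies are not independent molecules, and SEs of low genes are read with that in mind. A difference on this scale understates changes of genes with few reads. Coordinates and 10508 of the 10509 identifiers were matched to a RefSeq table of GRCm38.p6.

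The 73 pairs of samples of the same genotype had a chi-square of 6.10 to 47.6 per degree of freedom, so each counted as a separate sample. Replicate numbers are names in accession order. Each gene was fitted by least squares on high or low and genotype (Python 3.11.15, numpy 2.4.6, pandas 2.3.3, matplotlib 3.10.9). A gene counted as free of overlap where all 6 high values lay above, or below, all 6 low values. KO and WT were compared with limma 3.58.1 in R 4.3.3 (mean-variance trend, Benjamini-Hochberg adjusted p under 0.05), checked on simulated data.

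The members, the 34 gene lists (33 with a measured gene, the exception being lymphocyte markers) and the tests were chosen with earlier results of these data known. Named genes were a fixed set, the 4 members of largest difference in each list among those with a mean log2 value of at least 3, and the 10 largest differences in each direction among genes free of overlap with a mean of at least 4. The genes Ssr1, Uso1, Tmed9, Selenos, Canx, Sil1, Prdx4, Ero1b and Syvn1 were named after their values were seen. Fixed genes Pdia6, Mafa and Chgb were not analysed here, and a few genes named by the rule are not reported here. Alternatives were other group sizes, other orderings, covariates, median centring, 1 added before the log, a filter on low genes, each genotype alone, and leaving out the 3 sparsest samples or each sample in turn. The within-run values were added after seeing the data.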

Additional observations from a re-analysis of the deposited data

Results flagged for a closer look

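Over 24 items in the 2 genotype groups, 48 groups of values were examined for a single sample standing far from the rest, and 3 such samples were found, where chance gives about 1 in 20 groups. WT 7 had 346 listed genes with no read, against 62 to 150 in the other WT samples. Ttyh1 had a log2 value of 3.33 in WT 8, against 4.70 to 5.54 in the other WT samples. Xbp1 had a log2 value of 3.98 in KO 3, against 5.60 to 6.10 in the other KO samples. All 3 samples belonged to the low-chaperone group, but 3 of 48 is near the chance rate. Ttyh1 was also named because its values were low in that group.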

How the results depend on the processing

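The differences of named genes were recomputed under each alternative. Of these values 4862 stayed within 1 residual standard deviation of the main value and 122 moved further. No named gene that was free of overlap changed sign. The tally includes alternatives that kept the same high and low samples, values and fit, where the difference of a gene could not move. These were the order by mean z-score, the filter on genes with a mean log2 value of at least 3, and leaving out KO 1, KO 5, KO 7, KO 10, WT 1 or WT 6. Genes free of overlap depended on how many samples were compared. With 5 against 5 they numbered 107 higher and 79 lower; with 9 against 9, 1 and 0, and 2-fold genes were then 101 and 44. Among KO samples alone (2 high, 4 low), 599 higher and 587 lower of the 10506 genes were free of overlap, and 458 and 386 were 2-fold. Among WT samples alone (4 high, 2 low) the counts were 898 and 800, and 675 and 321. Groups this small are often free of overlap by chance alone, so these counts do not show that more genes differed within a genotype. With 1 added before the log, 102 and 59 genes were 2-fold, and 73 and 29 among genes with a mean log2 value of at least 3. Without the 3 sparsest samples 30 were higher without overlap and 106 and 102 were 2-fold. Leaving out each sample gave 38 to 59 genes higher and 20 to 39 lower without overlap, and 159 (without WT 7) to 340 and 125 to 175 genes 2-fold. Covariates leave counts of overlap as they are by construction. KO against WT gave 0 genes under each alternative run (limma). The 6 early secretory medians were positive under every alternative run. No paired analysis was possible because the labels give no replicate numbers. Ordering by other chaperones used 7 of the 8 planned genes, since Pdia6 was not analysed here. Genes with few reads are least precise.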

Other observations

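Several lists outside the ER were also mostly positive. For cholesterol synthesis, which takes place in the ER membrane, 17 of 20 genes were positive with a median of 0.34, and the list mean did not overlap, at 4.56 to 4.95 in the high-chaperone samples against 4.06 to 4.45 in the low ones. Without the 3 sparse samples the median was 0.29. The sterol demethylase Msmo1 differed by 0.56 ± 0.21, or 0.35 without the sparse samples. Insig1, the sterol-sensing ER anchor, differed by 1.21 ± 0.40, or 0.51 without WT 8, 0.72 without the sparse samples and -0.14 within the 2 runs of animal numbers.

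For oxidative phosphorylation 61 of 64 genes were positive with a median of 0.30, which was 0.16 without the 3 sparse samples and 0.07 with the number of genes at 0 reads as a covariate. Cytosolic ribosomal proteins had a median of 0.24 (46 of 58 positive; 0.12 without the sparse samples), proteasome subunits 0.21 (22 of 29; 0.06) and cytosolic heat shock genes 0.26 (13 of 14; 0.07). The inducible Hspa1a differed by 1.80 ± 0.69, or 0.93 without KO 6, 1.02 without the sparse samples and 0.10 within the 2 runs. Immediate-early genes, which respond fast to handling and to stimulation, had a median of 0.30 (13 of 16; 0.24 without the sparse samples). The list means of these 5 lists overlapped between the groups. Interferon-stimulated genes had a median of 0.09 (13 of 22 positive), which was -0.11 without KO 2. Genes of NAD synthesis and use, the pathway of the deleted kinase, had a median of 0.00 with 7 of 14 positive. Ductal markers had a median of 0.16, and adipocyte markers 0.68 over 3 genes, or 0.07 without KO 6.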
